A study of Arabidopsis thaliana with 21 samples.

Results

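The 10 genes described here make or control the early and core steps of aliphatic glucosinolate synthesis in Arabidopsis thaliana: MYB28 (AT5G61420), MYB29 (AT5G07690), BCAT4 (AT3G19710), MAM1 (AT5G23010), MAM3 (AT5G23020), IPMI1 (AT3G58990), CYP79F1 (AT1G16410), CYP79F2 (AT1G16400), CYP83A1 (AT4G13770) and SUR1 (AT2G20610). They are 10 of 32833 genes in the count table and 10 of the 20234 genes that passed the filter on low counts. They were chosen by pathway membership after CYP79F1 had been seen to be lower in hy5 than in wild type in growth light. That contrast is therefore given as a description of the members, with no test. The other contrasts that use the same wild-type or hy5 growth-light libraries share those libraries with it.

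Whole 7-day-old seedlings were sequenced in 21 poly-A-selected RNA libraries, 3 in each of 7 groups, each labelled a biological replicate. Wild type (WT, accession Col-0) and the hy5 mutant were harvested either in growth light or after 2 h in high light, at photon fluxes of 100 and of 500 µmol m-2 s-1. For hy5 itself no allele is stated in the labels. The 3 HY5-GFP lines were sampled in growth light alone. The K87K line carries 35S:HY5K87K-GFP, with the lysine kept, in hy5-1. The K87Q line carries 35S:HY5K87Q-GFP, with glutamine at that position, also in hy5-1. The K87R line carries 35S:HY5K87R-GFP, with arginine there, in hy5-2. The viral 35S promoter drives all 3 transgenes in most tissues, so none of the lines has the native HY5 pattern. Each form of HY5 is given as 1 line, so the substitution, the line and its insertion cannot be told apart. For K87R the allele differs as well.

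Glucosinolates are sulphur-containing defence compounds of the cabbage order, and myrosinase releases toxic products from them when tissue is damaged. Aliphatic glucosinolates are built from methionine. The R2R3 MYB factors MYB28 and MYB29 activate the pathway. Methionine is first lengthened by BCAT4 (the entry aminotransferase), the methylthioalkylmalate synthases MAM1 and MAM3, and IPMI1, a small subunit of isopropylmalate isomerase. The cytochromes P450 CYP79F1 and CYP79F2 then make aldoximes, CYP83A1 oxidises them, and the C-S lyase SUR1 releases the thiol that is glucosylated and sulphated. SUR1 also serves the indolic branch. HY5 is a bZIP transcription factor that promotes seedling responses to light and binds DNA at ACGT-containing elements.

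The promoter windows of 4 members are shown because HY5 binds ACGT elements: CYP79F1, the member that was lowest relative to WT in the K87K line, CYP83A1 and SUR1, the members with a G-box, and MAM1, which held no ACGT core. Each is the 250 bases before the annotated start, 5′ to 3′ on the gene's strand, from the RefSeq reference TAIR10.1. Capitals mark ACGT cores and the G-box CACGTG, which contains a core.
CYP79F1 promoter (chr1:5608432-5608681, plus strand): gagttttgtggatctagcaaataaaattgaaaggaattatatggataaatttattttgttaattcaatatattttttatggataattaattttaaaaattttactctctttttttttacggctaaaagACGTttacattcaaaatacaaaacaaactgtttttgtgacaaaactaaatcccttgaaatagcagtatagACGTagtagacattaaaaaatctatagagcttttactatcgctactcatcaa
CYP83A1 promoter (chr4:7992430-7992679, minus strand): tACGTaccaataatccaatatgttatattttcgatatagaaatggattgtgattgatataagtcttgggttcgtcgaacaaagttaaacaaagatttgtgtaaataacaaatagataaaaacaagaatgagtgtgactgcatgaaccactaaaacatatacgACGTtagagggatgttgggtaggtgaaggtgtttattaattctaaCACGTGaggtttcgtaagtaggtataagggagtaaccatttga
SUR1 promoter (chr2:8880441-8880690, minus strand): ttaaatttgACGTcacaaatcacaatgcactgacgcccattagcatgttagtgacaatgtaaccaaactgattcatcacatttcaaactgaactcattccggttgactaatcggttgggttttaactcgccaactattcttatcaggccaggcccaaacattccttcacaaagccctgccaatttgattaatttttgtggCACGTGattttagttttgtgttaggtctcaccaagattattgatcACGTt
MAM1 promoter (chr5:7702791-7703040, plus strand): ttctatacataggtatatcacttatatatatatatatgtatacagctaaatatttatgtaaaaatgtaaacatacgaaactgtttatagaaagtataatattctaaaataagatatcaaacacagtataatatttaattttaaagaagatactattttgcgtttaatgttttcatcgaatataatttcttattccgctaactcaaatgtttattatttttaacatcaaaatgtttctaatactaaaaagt
The palindromes CACGTG and ACGT were searched on both strands at once. In windows of the same length, a G-box stood in 2 of 10 members and in 6.48% of 27419 nuclear promoters. An ACGT core stood in 8 of 10 members and in 44.1% of promoters, and the members without one were MYB29 and MAM1. In CYP83A1 the G-box lay 43 bases before the start, and in SUR1 it lay 50 bases before it. CYP79F1 had cores 122 and 52 bases before the start. A match of letters is not a measured binding site.

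On the chromosomes, CYP79F2 (chr1:5605044-5607498) and CYP79F1 (chr1:5608682-5612064) are neighbours on the plus strand, as are MAM1 (chr5:7703041-7706973) and MAM3 (chr5:7718118-7721866). Coding sequences of CYP79F1 and CYP79F2 were 91.9% identical, those of MAM1 and MAM3 83.8%, and those of MYB28 and MYB29 77.8%. Of 1518 windows of 100 coding bases in CYP79F1, 1 was identical in CYP79F2, and no such window of MAM1 or MYB28 was identical in its paralogue. Reads of CYP79F1 and CYP79F2 could still be split unevenly. BCAT4 overlaps IKU2 on the opposite strand by 307 bases, but IKU2 held 8 counts over all 21 libraries. No strand setting is stated in the sources used here.

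Total counts were 7283290 to 22101539 per library, with a median of 14815169. At the median over libraries, 1 CPM (a count scaled to library size by TMM) was about 15.1 counts. HY5 (AT5G11260) matched the labels: it lay at 7.01 to 9.86 CPM in WT in growth light, at 1.24 or less in hy5 in growth light, and at 211 to 410 in the 3 lines, where a transgene read counts as native. Of the high-light libraries, replicate 3 stood apart in both genotypes. Spearman correlations between replicates fell to 0.808 (WT) and 0.777 (hy5), against 0.974 or more in every growth-light group. Results in high light are therefore also given without both of these libraries. P-values measure the spread between libraries, which was estimated from all groups together. Those of growth-light contrasts therefore also carry the spread of the high-light libraries. Some growth-light calls changed as well when both replicate 3 libraries in high light were left out.

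Levels of leaf and root marker genes moved between the groups. The summed level of 6 leaf mesophyll genes had a mean of 59520 CPM in WT, 71840 in hy5, 43210 in K87K, 16520 in K87Q and 11560 in K87R in growth light, and 36360 (WT) and 34990 (hy5) after high light. By library the leaf sum in high light was 53033, 40033 and 15999 CPM in WT and 53870, 46636 and 4454 in hy5, so replicate 3 was the lowest in both genotypes. Plastid genes held 6.52% (WT) and 7.3% (hy5) of the counts in these replicate 3 libraries, and 0.0442 to 0.869% in the other high-light libraries. The summed level of 12 root genes was 2876, 2530, 2930, 1144 and 1483 CPM in the same 5 growth-light groups, and 511 and 587 in high light. PYK10 held 88.5% of the counts of the root list, so this sum is mostly that gene. Without PYK10 the mean sum was 287.3 CPM in WT, 408.7 in hy5, 395.2 in K87K, 88.5 in K87Q and 76.5 in K87R in growth light, and 182 (WT) and 56.7 (hy5) in high light. The root gene ESB1 held 0 to 9 counts per library and did not pass the filter. In whole-seedling RNA, fewer cells of a type and less RNA per cell cannot be told apart. The part of these shifts in the results below was not tested.

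In growth light the summed level of the 10 members was 302.9 ± 13.6 CPM (SD, n = 3) in WT, 152.5 ± 1.31 in hy5, 50.7 ± 3.05 in K87K, 156 ± 15.1 in K87Q and 197 ± 10.2 in K87R. After high light it was 115 ± 14.97 for WT and 102 ± 29.95 for hy5. Of the 5 growth-light groups, WT had the highest mean for 7 members and K87R for MYB28, MYB29 and SUR1. K87K had the lowest mean for 9 members, and K87Q for MAM3. Per kilobase of transcript in WT in growth light, CYP83A1 was the most abundant member (42.8 CPM per kb), followed by MAM1 (28.3), BCAT4 (26.3), IPMI1 (25.9), SUR1 (16.6), MYB28 (9.79), CYP79F1 (9.05), CYP79F2 (2.74), MYB29 (2.23) and MAM3 (1.77).

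**Figure D1:**
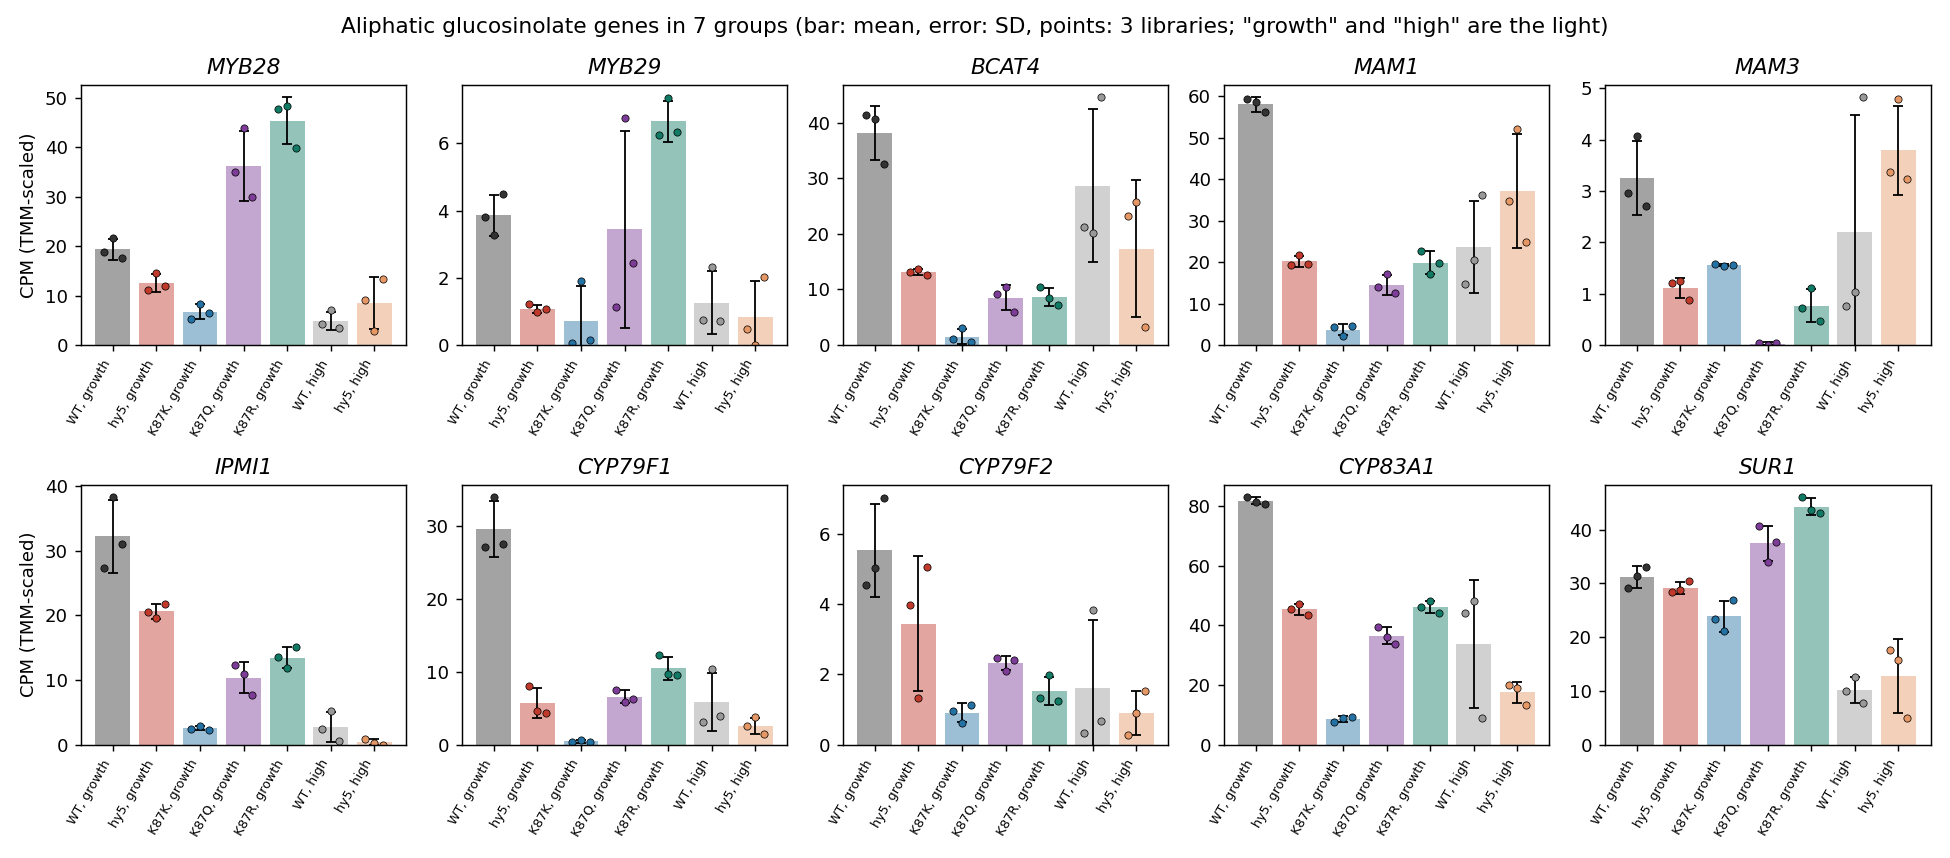
Level of each member in the 7 groups, in CPM scaled by TMM on a linear axis, with the mean (bar), SD (error bar) and the 3 libraries (points). MYB28 was higher in every K87Q and K87R library than in any WT library, whereas BCAT4 and MAM1 were lower there than in WT in growth light.

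Levels of MYB28, a regulator, lay above WT in K87Q and K87R and below it in K87K, with no overlap of libraries. It was at 18.8, 21.7 and 17.6 CPM in WT in growth light, and at 11.1, 14.6 and 12.0 in hy5. It was at 5.34, 8.36 and 6.46 CPM in K87K, at 34.9, 43.9 and 29.9 in K87Q, and at 47.8, 48.4 and 39.8 in K87R. All K87Q and K87R libraries lay above all WT libraries, and all K87K libraries below all hy5 libraries. In high light MYB28 was at 4.18, 7.01 and 3.49 CPM in WT and at 9.19, 2.85 and 13.3 in hy5, groups that overlap.

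MYB29 was a weaker signal. It was at 3.81, 3.27 and 4.50 CPM in WT in growth light, at 1.21, 0.974 and 1.06 in hy5, and at 6.26, 7.36 and 6.34 in K87R. In K87K it was at 0.0684, 1.92 and 0.164 CPM, and in K87Q at 1.14, 6.74 and 2.45, so that single libraries held most of the counts in both lines. In high light MYB29 was at 0.752, 2.34 and 0.707 CPM in WT and at 0.463, 0 and 2.03 in hy5.

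Among the chain-elongation genes, BCAT4 and MAM1 followed one order of the growth-light groups. BCAT4 was at 41.4, 40.6 and 32.6 CPM in WT and at 13.1, 13.6 and 12.6 in hy5. It was at 1.03, 2.99 and 0.572 CPM in K87K, at 9.12, 10.5 and 6.03 in K87Q, and at 10.4, 8.42 and 7.23 in K87R. WT lay above every other growth-light library and K87K below, while K87Q and K87R overlapped. In high light BCAT4 was at 21.3, 20.2 and 44.6 CPM in WT and at 23.1, 25.7 and 3.27 in hy5, with replicate 3 at opposite ends.

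MAM1 was at 59.4, 58.6 and 56.1 CPM in WT in growth light and at 19.4, 21.8 and 19.5 in hy5. It was at 4.45, 2.15 and 4.58 CPM in K87K, at 13.9, 17.1 and 12.5 in K87Q, and at 22.7, 17.2 and 19.8 in K87R. The K87Q libraries lay between those of K87K and K87R without overlap. In high light MAM1 was at 14.6, 20.5 and 36.1 CPM in WT, below every WT library in growth light, and at 34.6, 52.1 and 24.9 in hy5, above every hy5 library in growth light.

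MAM3, which can make the longer chains, was a low gene that departed from the others. It was at 2.96, 4.06 and 2.71 CPM in WT in growth light, at 1.21, 1.24 and 0.884 in hy5, at 1.57, 1.53 and 1.55 in K87K, and at 0.716, 1.10 and 0.468 in K87R. The 3 K87Q libraries held 1, 0 and 1 counts of MAM3. From counts alone, MAM3 was 51.6-fold higher in K87K than in K87Q (95% exact interval 13.7 to 435), from 62 counts against 2, and 26.1-fold higher in K87R (6.77 to 222.5), from 41 counts. Both intervals cover counting error only. In high light MAM3 was at 0.752, 1.03 and 4.82 CPM in WT and at 3.37, 4.79 and 3.22 in hy5.

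IPMI1 was lower in high light in both genotypes. Its mean there was lower in hy5 (0.410 CPM) than in WT (2.79), but the libraries overlapped. It was at 27.4, 38.3 and 31.0 CPM in WT in growth light and at 2.51, 5.24 and 0.619 in WT in high light. In hy5 it was at 20.5, 19.6 and 21.8 CPM in growth light and at 0.925, 0.306 and 0 in high light, from 14, 3 and 0 counts. The lines had 2.46, 2.91 and 2.29 CPM (K87K), 12.4, 10.9 and 7.74 (K87Q) and 13.5, 11.8 and 15.1 (K87R), all below WT and hy5 in growth light.

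Among the core genes, CYP79F1, the enzyme that commits chain-elongated methionine to glucosinolates, was at 27.2, 34.0 and 27.6 CPM in WT in growth light and at 8.06, 4.69 and 4.33 in hy5. K87K held 5, 9 and 4 counts of CYP79F1 (0.342, 0.690 and 0.327 CPM), K87Q 7.58, 5.91 and 6.27 CPM, and K87R 12.3, 9.66 and 9.52. K87K was at 1.53% of the WT mean, K87Q at 22.3% and K87R at 35.5%, and the 3 lines did not overlap. In high light CYP79F1 was at 3.17, 10.4 and 3.94 CPM in WT and at 2.51, 3.77 and 1.53 in hy5.

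CYP79F2 was at 4.54, 5.02 and 7.03 CPM in WT in growth light and at 3.96, 1.33 and 5.04 in hy5, which overlap. It was at 0.614 to 1.14 CPM in K87K, 2.10 to 2.48 in K87Q and 1.25 to 1.98 in K87R, each line below every WT library. In high light it was at 0.334, 3.83 and 0.663 CPM in WT and at 0.264, 0.918 and 1.53 in hy5.

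CYP83A1 was at 82.9, 81.3 and 80.7 CPM in WT in growth light and at 45.5, 47.2 and 43.5 in hy5. It was at 7.66, 8.97 and 9.32 CPM in K87K, at 39.5, 36.1 and 33.8 in K87Q, and at 46.0, 48.1 and 44.0 in K87R. K87R and hy5 overlapped, and K87K lay far below both. In high light CYP83A1 was at 44.0, 48.0 and 8.93 CPM in WT and at 20.1, 19.1 and 13.4 in hy5, so replicate 3 of WT alone fell below hy5.

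SUR1 varied least among the growth-light groups. It was at 29.1, 31.5 and 33.0 CPM in WT, 28.3, 28.8 and 30.4 in hy5, 23.5, 21.2 and 26.9 in K87K, 40.6, 34.1 and 37.7 in K87Q, and 46.1, 43.7 and 43.2 in K87R. It was the only member besides MYB28 for which every K87Q and K87R library exceeded every WT library. In high light SUR1 was at 10.02, 12.6 and 7.74 CPM in WT and at 17.6, 15.8 and 4.96 in hy5.

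**Figure D2:**
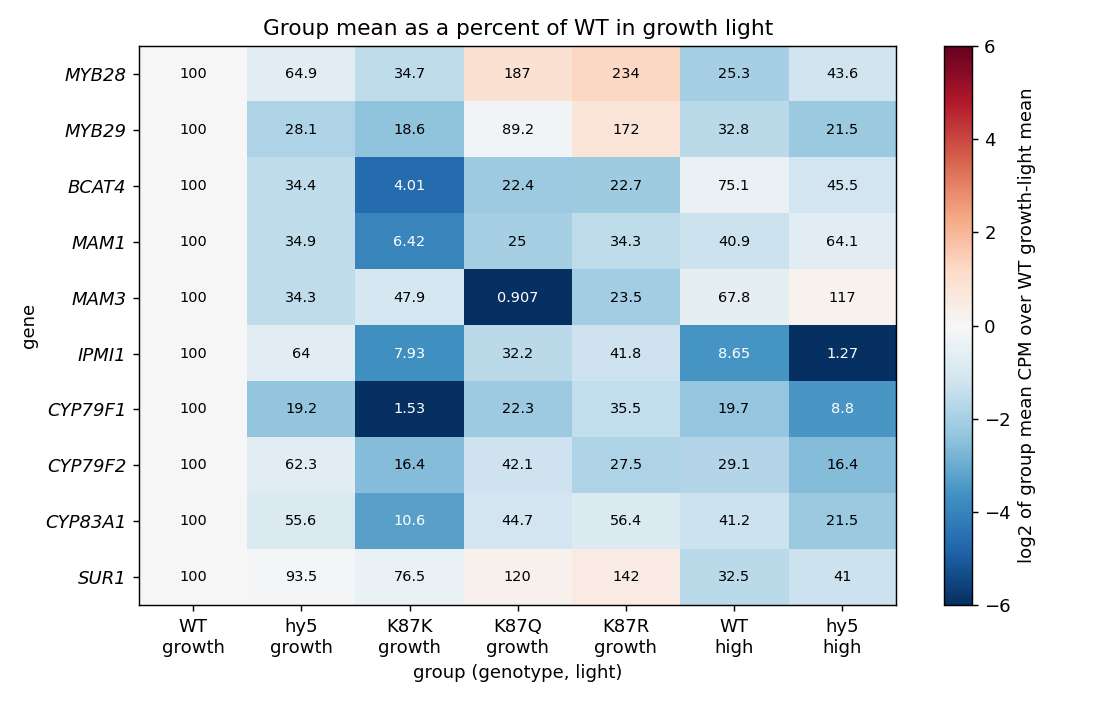
Group means of each member as a percent of the WT mean in growth light, with colour on a log2 scale cut off at 6 in either direction. CYP79F1 was at 1.53% in K87K and 19.2% in hy5, while MYB28 reached 187% in K87Q and 234% in K87R.

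High light lowered most members in WT. The test was edgeR's quasi-likelihood test over all genes, and calls were made at a Benjamini-Hochberg threshold of 0.05. Of the 10 members 6 were called lower and none higher, against 10.8% of all genes called lower. The median log2 fold change of the 10 was -1.63, against 0.03 over all genes tested. The log2 level of IPMI1 fell by 3.57 ± 0.65 (SE of the fit, adjusted p = 0.00047), CYP79F1 by 2.35 ± 0.42 (adjusted p = 0.00044), MYB28 by 1.99 ± 0.39 (adjusted p = 0.00092) and SUR1 by 1.63 ± 0.32 (adjusted p = 0.0011). MAM1 fell by 1.29 ± 0.33 (adjusted p = 0.0072) and CYP83A1 by 1.28 ± 0.37 (adjusted p = 0.016). MYB29 (-1.63 ± 0.95), CYP79F2 (-1.81 ± 0.72), MAM3 (-0.53 ± 0.60) and BCAT4 (-0.41 ± 0.54) were not called. Without replicate 3 of both genotypes in high light, BCAT4 (-0.88, adjusted p = 0.027) and MAM3 (-1.86, adjusted p = 0.013) were called lower too, in a fit that called 46.6% of all genes against 24.8% with every library. In the same contrast 6 of 11 tested root markers were called lower and none of the 6 leaf markers was.

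In hy5 the same light step gave 5 members called lower and 2 called higher. IPMI1 fell by 5.72 ± 0.76 (log2, adjusted p = 1.3e-05), CYP83A1 by 1.37 ± 0.38 (adjusted p = 0.0076), SUR1 by 1.19 ± 0.32 (adjusted p = 0.0066), CYP79F1 by 1.16 ± 0.43 (adjusted p = 0.039) and CYP79F2 by 1.90 ± 0.73 (adjusted p = 0.049), so that 5 of 10 were called lower against 17.7% of all genes. MAM1 (0.88 ± 0.33, adjusted p = 0.042) and MAM3 (1.76 ± 0.62, adjusted p = 0.033) were called higher, 2 of 10 against 18.9% of all genes, a share near the background. The median log2 fold change of the members was -0.86, against 0 over all genes. MYB28 (-0.56 ± 0.38), MYB29 (-0.28 ± 0.96) and BCAT4 (0.39 ± 0.54) were not called. The calls of MAM1, MAM3, CYP79F1 and CYP79F2 were each lost when single libraries were left out, at adjusted p up to 0.20, 0.11, 0.20 and 0.17. Those of IPMI1, CYP83A1 and SUR1 held without each of the 21 libraries. Without both replicate 3 libraries in high light, MYB28 (-1.01, adjusted p = 0.014) was called lower, BCAT4 (0.91, adjusted p = 0.019) higher, and CYP79F1 was no longer called (adjusted p = 0.070), while 47.4% of all genes were called against 36.5%. Here 8 of 11 root markers and 1 of 6 leaf markers were called lower.

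**Figure D3:**
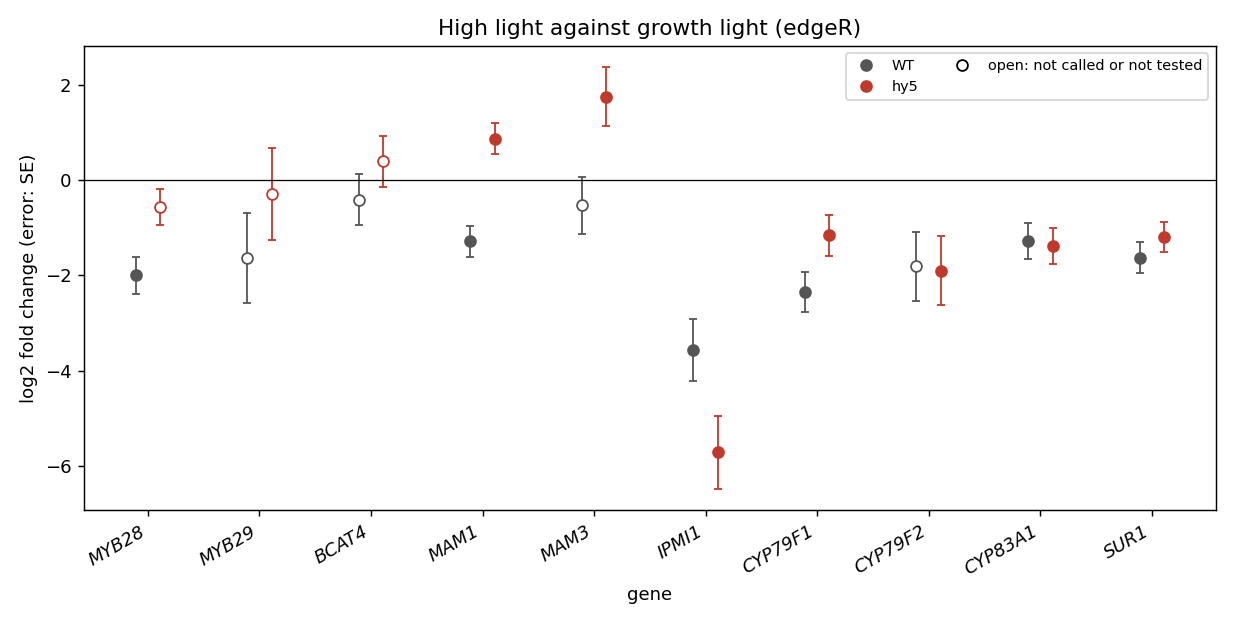
Log2 fold change of each member in high against growth light in WT and hy5, with the SE of the edgeR fit; filled points passed an adjusted p of 0.05. MAM1 was at -1.29 in WT and 0.88 in hy5, and IPMI1 was the lowest point in both genotypes.

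Whether the light response differed between the genotypes was tested as an interaction, in which edgeR called 0 of 10 members and 0.089% of all genes. At an unadjusted p under 0.05, 4 of 10 members and 2752 genes passed, and DESeq2 called 1 member (MAM1, adjusted p = 0.0025) and 369 genes. The interaction was 2.16 ± 0.46 for MAM1 (log2, hy5 response minus WT response, edgeR adjusted p = 0.073), 2.28 ± 0.86 for MAM3 (adjusted p = 0.27), 1.44 ± 0.54 for MYB28 (adjusted p = 0.26) and -2.15 ± 0.93 for IPMI1 (adjusted p = 0.32). The median over the members was 1.00, against -0.03 over all genes. Without both replicate 3 libraries in high light, 4 members were called: MAM1 (2.84, adjusted p = 5.5e-06), MAM3 (3.73, adjusted p = 0.0017), BCAT4 (1.78, adjusted p = 0.0052) and IPMI1 (-1.86, adjusted p = 0.0091). In that fit 25.2% of all genes were called. With the replicate number as a block within each light, MAM1 (2.21, adjusted p = 0.0054), MAM3 (2.73, adjusted p = 0.044) and IPMI1 (-2.14, adjusted p = 0.03) were called, and 10.8% of all genes.

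After high light, hy5 and WT overlapped for every member, as for most genes. Of all genes 2.69% were higher and 4.96% lower in hy5 without overlap. IPMI1 was called lower in hy5 (-2.79 ± 0.74, edgeR adjusted p = 0.044), which made 1 of 10 members against 2.3% of all genes, with a member median of -0.60 and an all-gene median of -0.04. That call was lost without any of 19 of the 21 libraries in turn. In this contrast the deviations of libraries with the same replicate number correlated (r = 0.159 to 0.483). The labels state no pairing, and replicate 3 stood apart in both groups, so pairs cannot be told apart from that. With the number as a block over all libraries the call was lost (adjusted p = 0.054). With a block within each light, IPMI1 (-2.78, adjusted p = 0.0012) and CYP79F1 (-1.07, adjusted p = 0.025) were called lower, 2 members beside 16.4% of all genes. Without both replicate 3 libraries 6 members were called, as were 6117 of 20420 genes, where all libraries gave 3.14% of genes. MAM1 (1.31, adjusted p = 0.00082), MAM3 (2.19, adjusted p = 0.011) and SUR1 (0.57, adjusted p = 0.033) were then higher in hy5, and IPMI1 (-2.52, adjusted p = 0.00014), CYP83A1 (-1.23, adjusted p = 1.2e-05) and CYP79F1 (-1.11, adjusted p = 0.049) lower. In the fit of all libraries 4 of 11 root markers were called lower in hy5 and no leaf marker was.

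In growth light, the contrast from which CYP79F1 was first known, all 10 log2 fold changes of hy5 against WT were negative, with a median of -1.18 (all genes -0.01). CYP79F1 stood at -2.37 ± 0.42, MYB29 at -1.82 ± 0.95, BCAT4 at -1.54 ± 0.55, MAM3 at -1.53 ± 0.62 and MAM1 at -1.52 ± 0.33. The smallest were IPMI1 (-0.64 ± 0.58), MYB28 (-0.62 ± 0.37) and SUR1 (-0.10 ± 0.31). For 8 members every hy5 library lay below every WT library, as for 22.2% of all genes.

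The K87K line, with the unsubstituted HY5-GFP, had lower levels of most members than hy5 or WT. Against hy5, 5 of 10 members were called lower and none higher, where 0.4% of all genes were called lower, with a member median of -2.16 (all genes 0.00). CYP79F1 fell by 3.64 ± 0.50 on the log2 scale (edgeR adjusted p = 0.0012), BCAT4 by 3.09 ± 0.61 (adjusted p = 0.018), IPMI1 by 3.01 ± 0.64 (adjusted p = 0.028), MAM1 by 2.44 ± 0.35 (adjusted p = 0.0018) and CYP83A1 by 2.39 ± 0.39 (adjusted p = 0.0049). CYP79F2 (-1.92 ± 0.74), MYB28 (-0.90 ± 0.38), MYB29 (-0.60 ± 1.00), SUR1 (-0.29 ± 0.31) and MAM3 (0.48 ± 0.62) were not called. The calls of BCAT4 and IPMI1 were lost without single hy5 or K87K libraries, at adjusted p up to 0.13 and 0.16, and on total counts without TMM scaling (adjusted p = 0.055 and 0.062). No root or leaf marker was called in this contrast, where 0.84% of all genes were called, so equal tissue content cannot be read from it. Every K87K library lay below every hy5 library for 5 of 6 leaf and 5 of 12 root markers, and above for 1 root marker. Of all genes 20.8% lay below in this way and 20% above.

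Against WT, the same 5 members were called lower in K87K, beside 0.479% of all genes, with a member median of -2.92 (all genes -0.02). CYP79F1 fell by 6.01 ± 0.53 (log2, edgeR adjusted p = 3.1e-06), BCAT4 by 4.63 ± 0.64 (adjusted p = 0.00089), MAM1 by 3.96 ± 0.37 (adjusted p = 4.4e-06), IPMI1 by 3.65 ± 0.65 (adjusted p = 0.0086) and CYP83A1 by 3.24 ± 0.40 (adjusted p = 0.00024). The call of IPMI1 was lost without any single K87K library, at adjusted p of 0.054 to 0.081. For all 10 members every K87K library lay below every WT library, as for 20.4% of all genes. MYB28 (-1.53 ± 0.38, adjusted p = 0.059), CYP79F2 (-2.60 ± 0.75), MYB29 (-2.42 ± 0.99), MAM3 (-1.06 ± 0.61) and SUR1 (-0.39 ± 0.31) were not called. Without both replicate 3 libraries in high light, MYB28 (edgeR adjusted p = 0.00061), CYP79F2 (adjusted p = 0.0051) and MYB29 (adjusted p = 0.044) were called lower too. That fit also called a larger share of all genes.

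The K87Q and K87R lines had more of most members than K87K. In K87Q, 6 of 10 were called higher (6.62% of all genes) and 1 lower (8.7% of all genes), with a member median of 2.05 (all genes 0.04). CYP79F1 was higher by 3.84 ± 0.50 on the log2 scale (edgeR adjusted p = 3.3e-05), a 14.3-fold difference. BCAT4 (2.48 ± 0.60, adjusted p = 0.0079), MYB28 (2.43 ± 0.39, adjusted p = 0.00029), CYP83A1 (2.08 ± 0.39, adjusted p = 0.001), IPMI1 (2.02 ± 0.62, adjusted p = 0.032) and MAM1 (1.96 ± 0.35, adjusted p = 0.00064) were higher as well. The lower member was MAM3 (adjusted p = 0.00023), whose counting ratio is given above. MYB29 (2.26 ± 0.98), CYP79F2 (1.36 ± 0.73) and SUR1 (0.65 ± 0.31) were not called. The call of IPMI1 was lost without any single K87K or K87Q library, at adjusted p of 0.051 to 0.11.

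In K87R against K87K, 7 of 10 members were called higher (6.71% of all genes) and none lower, with a member median of 2.41 (all genes 0.06). CYP79F1 was higher by 4.51 ± 0.51 (log2, edgeR adjusted p = 7.3e-06), a 22.8-fold difference. MYB28 was higher by 2.75 ± 0.40 (adjusted p = 9.3e-05), BCAT4 by 2.49 ± 0.60 (adjusted p = 0.0082), MAM1 by 2.41 ± 0.35 (adjusted p = 9.9e-05), CYP83A1 by 2.41 ± 0.39 (adjusted p = 0.0003), IPMI1 by 2.40 ± 0.62 (adjusted p = 0.013) and MYB29 by 3.21 ± 1.00 (adjusted p = 0.036). The MYB29 call was lost without single K87K or K87R libraries (adjusted p up to 0.14), and that of IPMI1 without K87K replicate 1 or 3 (0.055 and 0.059). SUR1 (0.89 ± 0.32), CYP79F2 (0.75 ± 0.73) and MAM3 (-1.01 ± 0.63) were not called. Leaf and root markers were lower in both lines than in K87K: 2 of 6 leaf and 5 of 11 root markers were called in K87Q, and 3 and 4 in K87R. Both contrasts share the K87K libraries.

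**Figure D4:**
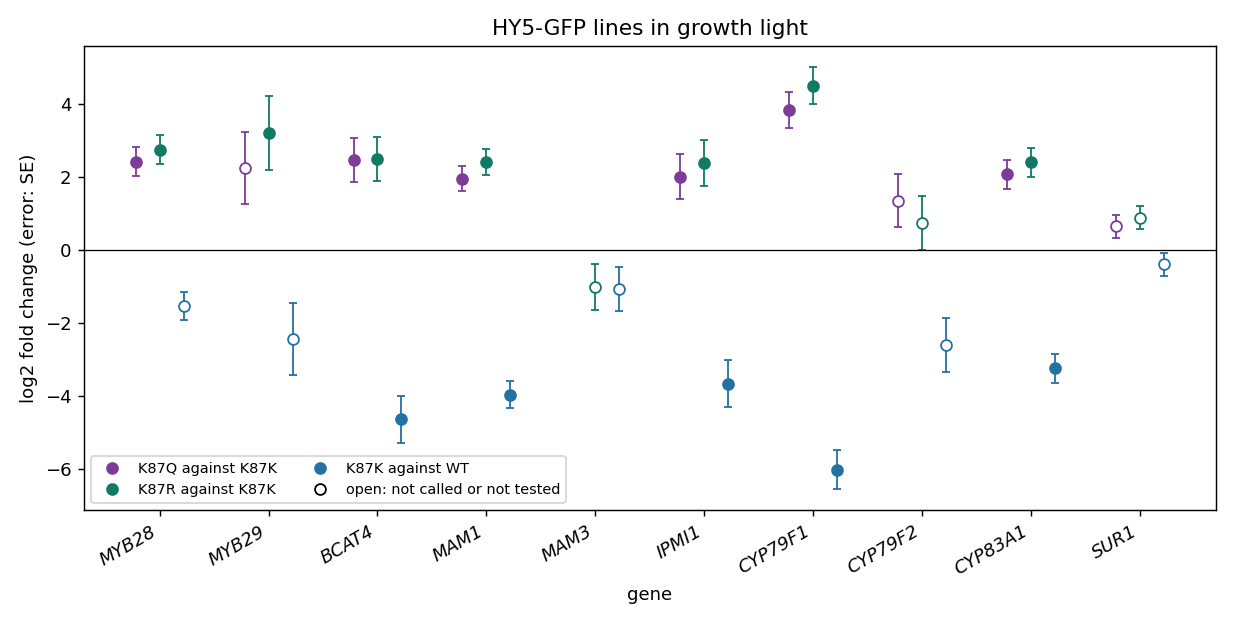
Log2 fold changes of the members in growth light, K87Q and K87R against K87K and K87K against WT, with the SE of the edgeR fit; filled points passed an adjusted p of 0.05. MAM3 in K87Q is left out because that group held 2 counts. CYP79F1 was at -6.01 in K87K against WT and at 3.84 and 4.51 in K87Q and K87R against K87K.

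Against hy5, 2 members were called in K87Q and 1 in K87R, beside 16.7% and 22.4% of all genes. In K87Q every library lay above every hy5 library for 2 members and below for 5 (31.2% and 27.8% of all genes). In K87R this held for 4 and 2 (33.7% and 29.6%). MYB28 was called higher in K87Q (1.53 ± 0.38 log2, edgeR adjusted p = 0.009), 1 of 10 against 7.35% of all genes, and in K87R (1.85 ± 0.38, adjusted p = 0.0019), 1 of 10 against 11.1%. MAM3 was called lower in K87Q (adjusted p = 0.00055), 1 of 10 against 9.38% of all genes; by counts it was 37.3-fold higher in hy5 (95% exact interval 9.71 to 317.7). No member was called lower in K87R. Member medians were -0.40 in K87Q and 0.00 in K87R, against 0.10 over all genes in both. CYP79F1 stood at 0.21 ± 0.41 in K87Q and 0.88 ± 0.41 in K87R, BCAT4 at -0.62 ± 0.54 and -0.60 ± 0.55, and CYP83A1 at -0.32 ± 0.37 and 0.02 ± 0.37. On total counts without TMM scaling the median log2 fold change of all genes was 0.76 in K87Q and 1.05 in K87R. Members called higher then numbered 2 and 5, while 25.7% and 41.7% of all genes were called in either direction, and MAM3 remained the member called lower in K87Q. In these contrasts 4 of 6 leaf and 4 of 11 root markers were called lower in K87Q, and 5 and 5 in K87R.

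K87Q and K87R themselves were compared directly. By edgeR 0 of 10 members and 0% of all genes were called; at an unadjusted p under 0.05, 1 member (MAM3) and 1538 genes passed, and DESeq2 called 0 members and 62 genes. With the spread taken from these groups alone, 2 members (MAM3, adjusted p = 0.0066, and CYP79F1, adjusted p = 0.026) and 23.6% of genes were called. The log2 difference, K87Q minus K87R, was -0.67 ± 0.41 for CYP79F1, -0.45 ± 0.33 for MAM1, -0.33 ± 0.37 for CYP83A1 and -0.32 ± 0.37 for MYB28, with a member median of -0.36.

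Across libraries the members did not move as one. Pearson's r of log2 CPM between each member and the mean of the other 9 over 21 libraries was 0.94 for CYP79F1, 0.888 for CYP83A1, 0.706 for IPMI1, 0.641 for CYP79F2 and 0.623 for MYB29. It was 0.56 for MAM1, 0.536 for MYB28, 0.531 for BCAT4, 0.418 for SUR1 and -0.236 for MAM3. Within the 15 growth-light libraries CYP79F1 reached 0.986, CYP83A1 0.979, MAM1 0.932, IPMI1 0.922 and BCAT4 0.91, while MYB28 was at 0.586 and MAM3 at -0.0409. The libraries share groups and scaling, so these are descriptions. MYB28 exceeded its WT level in K87Q (187% of the WT mean) and K87R (234%), where BCAT4 was at 22.4% and 22.7%, MAM1 at 25.0% and 34.3%, and CYP79F1 at 22.3% and 35.5%.

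The 8 other genes with a pattern most like the mean of the members were, by r over 21 libraries, BAT5 (0.881), FMO GS-OX3 (0.862), AK3 (0.861), HL, AT5G54390 (0.828), FMO GS-OX1 (0.788), IPMI2 (0.774), AT2G02765 (0.772) and AT1G76020 (0.76). Over the 15 growth-light libraries r was 0.954 for BAT5, 0.922 for FMO GS-OX3, 0.883 for AK3, 0.889 for HL, 0.861 for FMO GS-OX1, 0.785 for IPMI2, 0.848 for AT2G02765 and 0.82 for AT1G76020. BAT5 is the plastid transporter of the chain-elongation intermediates, IPMI2 another small subunit of the isomerase, and the FMO GS-OX enzymes oxidise the finished side chain. AK3 is an aspartate kinase and HL a nucleotide phosphatase of sulphur metabolism. BAT5 (AT4G12030) was at 11.8, 14.6 and 14.5 CPM in WT in growth light, at 5.82, 3.72 and 5.84 in hy5, at 1.37, 1.99 and 1.31 in K87K, at 8.80, 5.96 and 8.58 in K87Q and at 8.23, 7.82 and 5.98 in K87R. It was below every growth-light WT library in all the other groups. The 8 genes were picked for their likeness to the members in these same libraries, so a shared order adds no test.

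Other aliphatic pathway genes, taken from a list of 18 of which 16 were tested, were also called. In K87K against WT 7 were lower (0.479% of all genes) and none higher, with a list median of -0.89. They included GSTU20, a glutathione transferase (-3.12 ± 0.29, edgeR adjusted p = 4.1e-06), IPMI2 (-3.07 ± 0.36, adjusted p = 0.00014), the isopropylmalate dehydrogenase IMD1 (-2.77 ± 0.41, adjusted p = 0.0018) and BAT5 (-3.12 ± 0.53, adjusted p = 0.0052). BAT5 lost this call without K87K replicate 3. In K87Q against K87K 5 were higher (6.62% of all genes) and none lower, and in K87R 4 (6.71%) and none. Over the fits that left out 1 library these counts were 2 to 7 in each line, and 4 to 8 for K87K against WT. FMOGS-OX3 was higher by 4.77 ± 0.92 in K87Q (adjusted p = 0.0013) and by 4.46 ± 0.91 in K87R (adjusted p = 0.0023), and BAT5 by 2.32 ± 0.52 (adjusted p = 0.0043) and 2.23 ± 0.52 (adjusted p = 0.006). High light in WT gave 9 lower (10.8% of all genes) and 1 higher, where 24.8% of all genes were called in either direction. In hy5 it gave 7 lower (17.7%) and 2 higher (18.9%), and the higher share was not above the background. FMOGS-OX4 was higher in both, by 2.10 ± 0.27 in WT (adjusted p = 1.3e-05) and 2.52 ± 0.27 in hy5 (adjusted p = 1.2e-06). The sulphotransferase SOT17 fell by 2.62 ± 0.57 in WT (adjusted p = 0.0023).

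The indolic branch, which uses tryptophan, had genes called lower in high light. Of 15 tested indolic genes 6 were called lower in WT in high light (10.8% of all genes). In hy5 6 were called lower (17.7% of all genes) and 1 higher (18.9%). CYP83B1, the indolic counterpart of CYP83A1, fell by 3.27 ± 0.49 in WT (edgeR adjusted p = 6.8e-05) and by 3.37 ± 0.49 in hy5 (adjusted p = 3.4e-05), and CYP79B2, which makes indole-3-acetaldoxime, fell by 3.93 ± 0.72 (adjusted p = 0.0005) and 4.68 ± 0.76 (adjusted p = 0.00011). In K87K none of the 15 was called against hy5 or against WT, near the 0.84% and 1.09% of all genes called there. The list medians in K87K were 0.23 and -0.05, where the aliphatic members stood at -2.16 and -2.92. No test compared the 2 lists.

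Of 13 genes of sulphate uptake and assimilation, none was called in K87K against hy5, where 0.84% of all genes were called. Against WT 2 were called lower in K87K (0.479% of all genes). They were APR1 (-1.62 ± 0.33, edgeR adjusted p = 0.022) and APK1 (-1.28 ± 0.28, adjusted p = 0.034). Both calls were lost without any single WT or K87K growth-light library, and between 0 and 6 genes of the list were called over the fits that left out 1 library. In K87Q against K87K, 4 were higher (6.62% of all genes) and 1 lower (8.7%, a share near that of the list). In K87R against K87K, 4 were higher (6.71%) and 1 lower, where 15.1% of all genes were called in either direction. APR3, an APS reductase that supplies reduced sulphur, was higher by 2.01 ± 0.35 in K87Q (adjusted p = 0.00054) and 2.36 ± 0.35 in K87R (adjusted p = 0.00013). SDI1, a repressor of aliphatic glucosinolate synthesis that acts with MYB28, was itself lower in K87K than in WT (-2.23 ± 0.50, adjusted p = 0.036) and hy5 (-2.72 ± 0.51, adjusted p = 0.012), and higher in K87Q (2.18 ± 0.50, adjusted p = 0.0055) and K87R (2.10 ± 0.50, adjusted p = 0.0076) than in K87K. The call against WT held in 6 and that against hy5 in 17 of the 21 fits that left out 1 library.

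Among 11 tested genes of breakdown and transport, none was called in K87K against WT or hy5, near the 1.09% and 0.84% of all genes called there. In high light 4 were lower in each genotype, where 10.8% (WT) and 17.7% (hy5) of all genes were called lower. GTR2, an importer of glucosinolates, fell by 3.001 ± 0.27 in WT (edgeR adjusted p = 2.8e-07) and 1.66 ± 0.26 in hy5 (adjusted p = 6.4e-05). TGG4 and TGG5, the root myrosinases, were called lower in K87Q and in K87R against both hy5 and K87K, alongside the lower root markers; TGG5 held 0 counts in both lines and TGG4 0 in K87R.

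Genes of glucosinolate structure and breakdown that vary between natural accessions also differed between the lines. ESM1, an epithiospecifier modifier, was at 35.1 ± 0.369 CPM in WT, 26.7 ± 1.29 in hy5, 127 ± 3.80 in K87K, 126 ± 3.57 in K87Q and 54.8 ± 1.56 in K87R. K87K and K87Q, which share hy5-1, overlapped for ESM1 and lay above K87R. ESP, of the same list, did not group the lines in this way. It was called higher than in K87K both in K87Q (3.09 log2, edgeR adjusted p = 0.0054) and in K87R (2.89, adjusted p = 0.0089). ESM1 was called higher against hy5 in K87K (2.25 ± 0.48, edgeR adjusted p = 0.028) and K87Q (2.23 ± 0.48, adjusted p = 0.003). The K87K call was lost without any single hy5 or K87K growth-light library. GSL-OH, which hydroxylates the side chain, was at 188 ± 7.75 CPM in WT, 157 ± 8.07 in hy5, 77.0 ± 7.23 in K87K, 85.5 ± 0.943 in K87Q and 113 ± 4.97 in K87R. The hy5-1 allele was first isolated in the accession Landsberg erecta, and accessions differ in the genes they carry at the MAM locus. The labels give no accession for the lines, and the part of this in the results was not tested.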

How the data were processed

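The authors deposited raw counts per gene: whole numbers, with library totals that differ, in 21 columns that were all mapped to samples by their labels. The submitters' processing notes name DESeq2 1.20.0, featureCounts 1.5.0-p3, StringTie 1.3.3b, HISAT2 2.0.5 and fastp, and build TAIR10. The role of each tool and the strand setting are not given in the sources used here.

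Tests used edgeR 4.0.16 in R 4.3.3, with filterByExpr by group, TMM scaling and robust quasi-likelihood fitting. A single model held a mean for each group over the 21 libraries, from which 12 contrasts were taken. Adjusted p-values are Benjamini-Hochberg over the 20234 genes tested, with no adjustment for the number of contrasts. Unless DESeq2 is named, every adjusted p in the text is edgeR's. The SE of a log2 fold change is its size over the root of F. CPM use TMM library sizes, and values after ± are SD for CPM and SE for log2 fold changes. The procedure was run on simulated counts in which all genes had the same dispersion. That check does not cover the differing spread of genes or the outlying high-light libraries of these data.

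The members and gene lists were chosen with earlier results of these data known. Named were all members, HY5, from each list up to 4 genes with the smallest adjusted p among those called in the contrast described, the accession-dependent genes, and the 8 genes whose log2 CPM (prior count 2) correlated best with the mean of the members. Genes listed at 0 were named after their values were seen. Start and end coordinates of the 10 members were the same in the table and in the RefSeq reference (TAIR10.1), as for 32532 of 32548 nuclear genes.

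Alternatives were DESeq2 1.42.0, other scaling, no filter, replicate blocks, spread from the compared groups alone and leaving out libraries. To check pairing, the deviations from group means of libraries with the same replicate number were correlated. For hy5 and WT in high light r was 0.159 to 0.483, and elsewhere -0.126 to 0.134. The labels state no pairing, and the outlying high-light libraries share a replicate number, so r cannot settle whether libraries were paired. Intervals are exact at 95% and cover counting error only. AOP2, of the accession list, was not analysed here.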

Additional observations from a re-analysis of the deposited data

Results flagged for a closer look

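MAM1 was flagged because its libraries separated in opposite directions: every WT library was lower in high light than in growth light, and every hy5 library was higher. That separation is the rule of the flag and adds no test, and edgeR did not call the interaction. The difference, the log2 response of hy5 minus that of WT, was 2.16 ± 0.46 (SE), with an edgeR adjusted p of 0.073 for the interaction. In WT MAM1 fell by 1.29 ± 0.33 and in hy5 it stood at 0.88 ± 0.33. The hy5 rise kept its call in 10 of the 21 fits that each left out 1 library (edgeR adjusted p up to 0.20). Without both replicate 3 libraries in high light the interaction was 2.84 (adjusted p = 5.5e-06), and over the 21 fits that each left out 1 library its adjusted p was 0.00096 to 0.21.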

How the results depend on the processing

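No log2 fold change of a called member reversed under any alternative. Counts of members called are given here where they moved by more than 1.5 times, as alternative against the count of the fit described in the report. Other genes moved with them: the spread of the compared groups alone called 37.9% of all genes in hy5 against WT in growth light, 55.1% (K87Q) and 61.2% (K87R) against hy5, 27.9% in K87K against WT, 23.6% in K87Q against K87R and 0.0056% in hy5 against WT in high light. Omission of both high-light replicate 3 libraries called 10.4% in hy5 against WT in growth light, 25.2% for the interaction, 13.4% in K87K against WT, 45.7% in K87R against hy5 and 10.5% in K87Q against K87R. With every library these shares were 0.217%, 0.089%, 1.09%, 22.4% and 0%. Nothing particular to the members is read from these rises. Members were chosen from hy5 against WT in growth light, so its counts are a description: 1 as fitted, 2 with DESeq2, 5 with the omission, 2 with the replicate block within each light and 8 with the groups' own spread. In hy5 against WT in high light (1), the same omission called 6, no filter 0, the replicate block 0, the block within each light 2 and the groups' own spread 0. For hy5 in high against growth light (7), the groups' own spread called 2 (17.3% of all genes) and total counts 4. The interaction (0) rose to 1 with DESeq2, 4 with the omission and 3 with the block within each light. K87K against WT (5) rose to 8 with the omission and with the groups' own spread. K87K against hy5 (5) fell to 3 on total counts. K87Q against hy5 (2) rose to 8 with the groups' own spread. K87R against hy5 (1) rose to 2 with DESeq2, 5 with the omission, 4 with the block within each light, 7 with the groups' own spread and 5 on total counts, an alternative added after the data were seen. K87Q against K87R (0) rose to 1 with the omission, 1 with the block within each light and 2 with the groups' own spread. The cause of these moves was not tested. The replicate block over all libraries changed the calls of MAM1 in hy5 in high light (adjusted p = 0.055) and of IPMI1 in hy5 against WT in high light (adjusted p = 0.054) and no other call of a member. Leaving out each library in turn gave 6 to 7 members called in WT in high light, 3 to 7 in hy5, 0 to 3 for the interaction, 0 to 5 for hy5 against WT in high light and 0 to 3 in growth light. It gave 4 to 7 for K87K against WT, 3 to 5 against hy5, 6 to 8 for K87Q and 5 to 8 for K87R against K87K, 0 to 1 for K87Q against K87R, 2 to 2 for K87Q and 1 to 3 for K87R against hy5. On total counts the median log2 fold change of all genes against hy5 was 0.76 (K87Q) and 1.05 (K87R), and against K87K 0.38 and 0.70. Depth limits MAM3, MYB29 and CYP79F2, whose libraries held as few as 0 to 4 counts, IPMI1 in hy5 in high light (14, 3 and 0 counts) and CYP79F1 in K87K (5, 9 and 4 counts). The log2 fall of IPMI1 in hy5 ranged from -7.61 to -4.95 when 1 library was left out.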

Other observations

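MYC2, a bHLH factor that acts with MYB28 and MYB29, was listed at 0 counts in all 21 libraries, while MYC3 held 8442 and MYC4 4879 counts in all. MYC2 overlaps AT1G32630 on the opposite strand by 3241 bases, and no strand setting is stated, so its 0 cannot be read as absence. MYC4 was called higher in hy5 in high than in growth light (2.51 ± 0.46 log2, edgeR adjusted p = 0.00036), in hy5 than in WT in high light (1.87 ± 0.45, adjusted p = 0.03) and in K87R than in hy5 (1.75 ± 0.45, adjusted p = 0.0096). The high-light call against WT was lost without WT replicate 1, WT replicate 2 or hy5 replicate 3 in high light. GSTF11 of the aliphatic list and CYP81F1 of the indolic list were also listed at 0 in all 21 libraries. AOP3, a side-chain gene that varies between accessions, held 0 counts in 6 of the 7 groups. ESP, the epithiospecifier protein, was at 1.63 ± 0.28 CPM (SD, n = 3) in K87K, 13.9 ± 2.0 in K87Q and 12.1 ± 2.2 in K87R, and was called higher in K87Q (3.09 ± 0.71 log2, adjusted p = 0.0054) and K87R (2.89 ± 0.71, adjusted p = 0.0089) than in K87K.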
